A study of Homo sapiens with 6 samples.

Results

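Transcriptional regulators and phosphatase subunits of the integrated stress response were examined in cells titled SKM-1, the name of a human myeloid leukaemia cell line. The 10 genes, chosen by name from the 58735 genes of the deposited table, were ATF4, DDIT3, ATF3, ATF5, TRIB3, CEBPB, CEBPG, NUPR1, PPP1R15A and PPP1R15B, and each had 1 row. RNA was sequenced from cells kept for 48 h with celastrol (3 libraries) or with DMSO (3 libraries). Celastrol is a triterpenoid of the thunder god vine and DMSO is its solvent. The sources used here give no dose. The labels do not tie the libraries to separate cultures, so a p-value reflects library-to-library spread that could be technical in origin. Values are FPKM, fragments per kilobase of gene length, scaled by a library total, and the reads behind them came to between 13549187 and 16231066 per library.

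The integrated stress response begins when a kinase phosphorylates the translation factor eIF2, which lowers protein synthesis in general while the mRNA of ATF4 is translated more. ATF4 is a transcription factor of the bZIP family that switches on genes of amino acid supply and stress, and it does so in dimers with C/EBP proteins such as CEBPB and CEBPG. DDIT3, which encodes CHOP, ATF3 and ATF5 are further bZIP factors that ATF4 induces and that carry the response on. TRIB3 is a pseudokinase that binds and restrains ATF4 and CHOP, and NUPR1 is a small stress-induced chromatin protein. PPP1R15A (GADD34) and PPP1R15B (CReP) bring protein phosphatase 1 to eIF2 and end the response, the first inducibly and the second constitutively. ATF4 itself is controlled largely at translation and protein turnover, which RNA levels do not show.

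With celastrol 9 of the 10 genes were lower and 1, NUPR1, was higher (limma-trend, Benjamini-Hochberg adjusted p under 0.05 over all genes tested). In the background, 14.2% of the 12685 tested genes were called lower and 15.3% higher, 29.5% in all. The log2 fold changes ran from -1.79 for DDIT3 to 1.49 for NUPR1, with a median of -0.75 against 0.02 for all tested genes. In all 10 genes the 3 celastrol values lay on 1 side of the 3 DMSO values; among tested genes 22% had celastrol wholly lower and 25.3% wholly higher. All 10 genes passed the minimum mean of 1 FPKM, and each did so in both treatments. ATF4, DDIT3, ATF3, ATF5, TRIB3 and CEBPG kept their calls under all 17 alternatives of scaling, filter, model and left-out library, while CEBPB, NUPR1, PPP1R15A and PPP1R15B each lost theirs under some of them. With no filter on low values CEBPB, NUPR1 and PPP1R15A were not called (adjusted p = 0.274, 0.351 and 0.338). Fewer cells of a kind and less RNA per cell cannot be told apart in bulk RNA.

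**Figure D1:**
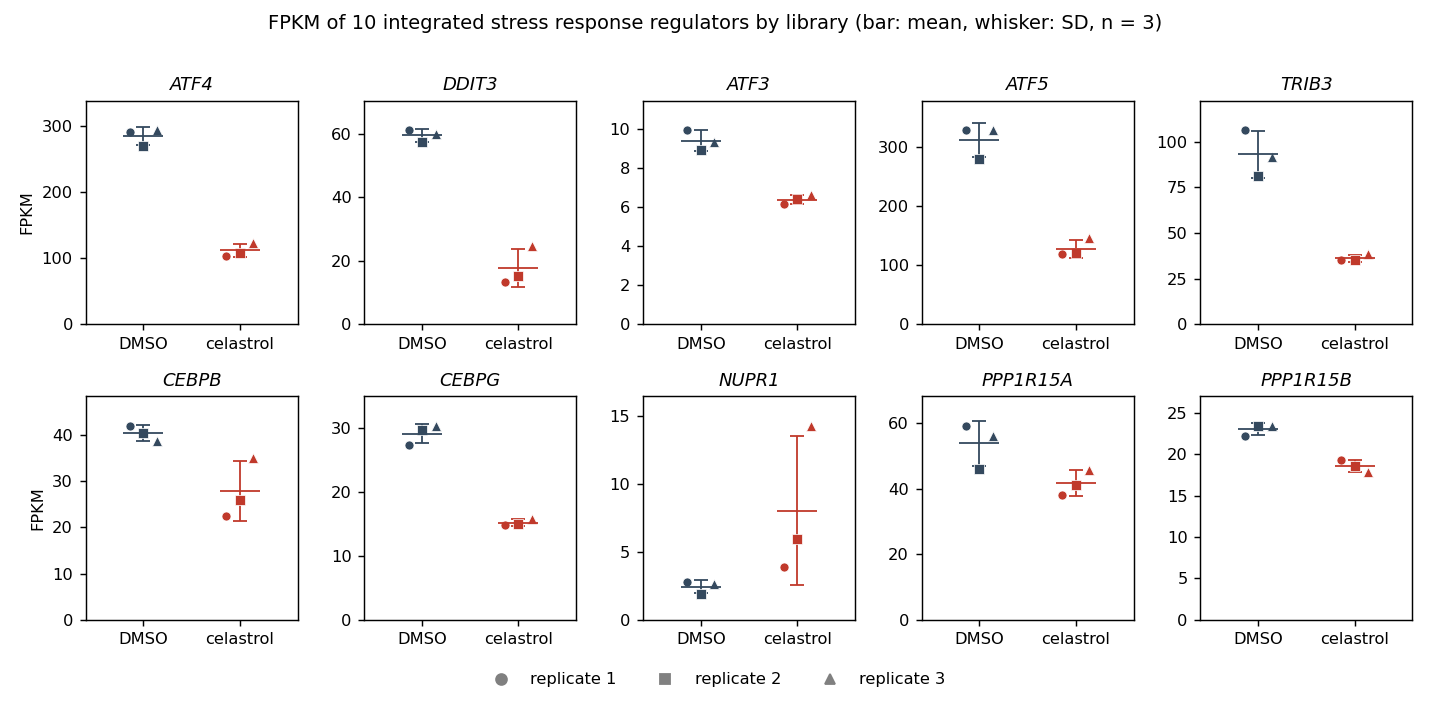
FPKM of each of the 10 genes in every library, on a linear axis from 0. Points are libraries (symbol: replicate number), the bar is the mean and the whisker the SD of 3 libraries; in each panel the celastrol points lie wholly below the DMSO points, except for NUPR1, where they lie above.

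The promoters are shown because ATF4 dimers and related bZIP factors bind short known motifs. RefSeq's promoter table (GRCh38.p14) matched 9 of the 10 genes, with 18 start sites, and the 250 bases upstream of each start were searched on both strands. The composite C/EBP-ATF element, written TGATGNAA, was present in 3 of the 18 windows, in CEBPG, PPP1R15B and ATF3, and in 3.14% of all 35116 windows of that length. The cAMP response element TGACGTCA was present in 1 of the 18 windows, in PPP1R15A, and in 1.65% of all windows. The AP-1 site TGANTCA was present in 3 of the 18 windows, in DDIT3 and ATF5, and in 6.57% of all windows. The DDIT3 windows hold the same site, 241 and 238 bases before their starts. The ATF5 match overlaps an exon and is not printed. The letters of these 3 motifs do not contain one another. A match describes the letters of the window and not binding, and windows without one say nothing of the factors. The sequences below are 5′ to 3′ on the gene's strand with the motif in capitals.
CEBPG (chr19:33374031-33374112, plus strand): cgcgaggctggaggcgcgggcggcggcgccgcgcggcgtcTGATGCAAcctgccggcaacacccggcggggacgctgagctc
PPP1R15B (chr1:204411997-204412067, minus strand): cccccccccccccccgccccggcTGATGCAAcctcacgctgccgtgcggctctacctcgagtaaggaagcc
ATF3 (chr1:212565176-212565263, plus strand): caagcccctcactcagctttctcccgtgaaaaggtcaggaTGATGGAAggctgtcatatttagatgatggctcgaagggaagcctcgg
PPP1R15A (chr19:48872323-48872391, plus strand): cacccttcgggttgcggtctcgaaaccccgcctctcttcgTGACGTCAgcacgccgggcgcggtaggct
DDIT3 (chr12:57520744-57520764, minus strand): gcgcgcgcaTGACTCAcccac
The motif starts 42 bases before the RefSeq start in CEBPG, 58 in PPP1R15A, 191 in ATF3 and 227 in PPP1R15B. The printed CEBPG and DDIT3 stretches lie inside the gene spans given below, upstream of RefSeq starts within those spans. The genes that share the composite element differed in the size of their change, from -0.93 for CEBPG through -0.55 for ATF3 to -0.31 for PPP1R15B on the log2 scale.

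ATF4, the factor at the centre of the response (chromosome 22, 39519695 to 39522685 on GRCh38), had 104, 108 and 123 FPKM in celastrol replicates 1 to 3 and 291, 270 and 294 in DMSO replicates 1 to 3. Every celastrol library was under the lowest DMSO library by more than the range within either treatment. The mean went from 285 ± 13.1 FPKM in DMSO libraries to 112 ± 9.97 in celastrol libraries (SD over 3 libraries), 2.55-fold lower. The log2 fold change was -1.36 (SE 0.08, adjusted p = 9.86e-05), the 196th lowest of 12685. ATF4 has processed pseudogenes, which can take reads of the parent gene; the highest value of any of the 4 listed, ATF4P3, was 1.08 FPKM.

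DDIT3, the CHOP gene (chromosome 12, 57516588 to 57521737), had the largest decrease of the 10. Celastrol replicates 1 to 3 had 13.4, 15.2 and 24.6 FPKM, and DMSO replicates 1 to 3 had 61.3, 57.5 and 59.9. Celastrol replicate 3 was the highest of its treatment and still far below every DMSO library. The means were 17.7 ± 6.01 and 59.5 ± 1.93 FPKM, a 3.36-fold decrease (log2 fold change -1.79, SE 0.20, adjusted p = 0.000944). Without celastrol replicate 3 the log2 fold change was -2.06. The exons of DDIT3 overlap those of MARS (methionyl-tRNA synthetase) and MBD6 on the opposite strand, and no source used here says whether counting used strand. They also overlap AC022506.1 on the same strand, which was at 0 FPKM in every library. MARS was itself lower with celastrol, at 47.0 ± 1.43 against 81.0 ± 8.74 FPKM, and the part of shared reads in either value was not tested.

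ATF3 and ATF5 are the other bZIP factors downstream of ATF4. ATF5 (chromosome 19, 49928702 to 49933935), which is active in the mitochondrial stress response, was the most abundant of the 10 per length. Its celastrol libraries had 118, 119 and 145 FPKM and its DMSO libraries 327, 278 and 328. The groups were apart and the log2 fold change was -1.29 (SE 0.11, adjusted p = 0.000289). Exons of ATF5 overlap NUP62 and IL4I1 on the other strand, and the microRNA gene MIR4751, at 0 FPKM in every library, on the same strand. NUP62, a nuclear pore protein, changed the other way, from 15.4 ± 0.609 FPKM with DMSO to 22.1 ± 2.20 with celastrol. ATF3 (chromosome 1, 212565334 to 212620777), an early stress-induced factor, was low and fell less, from 9.95, 8.92 and 9.36 FPKM in the DMSO libraries to 6.16, 6.40 and 6.61 in the celastrol libraries. Its values were tight in both treatments, and the log2 fold change was -0.55 (SE 0.08, adjusted p = 0.00220).

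The C/EBP partners parted in size and in spread. CEBPG (chromosome 19, 33373330 to 33382686), a dimer partner of ATF4, had 14.8, 15.0 and 15.7 FPKM with celastrol and 27.4, 29.6 and 30.3 with DMSO. These groups were narrow and separate, with a log2 fold change of -0.93 (SE 0.07, adjusted p = 0.000210). CEBPB (chromosome 20, 50190734 to 50192689), a factor of myeloid differentiation and stress, had 22.5, 25.9 and 35.0 FPKM with celastrol and 42.0, 40.5 and 38.6 with DMSO. Celastrol replicate 3 came close to the lowest DMSO library, and the coefficient of variation was 23.2% with celastrol against 4.25% with DMSO. The log2 fold change was -0.56 (SE 0.15, adjusted p = 0.0267). That call was lost without celastrol replicate 1 or 2 and without any of the DMSO replicates (adjusted p = 0.0562 to 0.0831) and under TPM (0.0952), and without celastrol replicate 3 the change was -0.74 (0.00336). CEBPB overlaps the antisense gene CEBPB-AS1, at a mean of 1.10 FPKM in the celastrol libraries and 0.729 in the DMSO libraries.

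Of the inhibitors, TRIB3 (chromosome 20, 362835 to 397559) had 35.0, 35.2 and 38.2 FPKM with celastrol and 106, 81.1 and 91.5 with DMSO. The DMSO libraries spread more than the celastrol libraries, and the lowest of them was well above the highest celastrol library. The log2 fold change was -1.35 (SE 0.10, adjusted p = 0.000222), nearly that of ATF4.

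NUPR1 (chromosome 16, 28532708 to 28539174) rose. Its celastrol libraries had 3.88, 5.98 and 14.3 FPKM, from 347, 563 and 1367 reads, and its DMSO libraries had 2.80, 1.90 and 2.63 FPKM, from 229, 145 and 222 reads. All celastrol values lay above all DMSO values, but they differed 3.70-fold among themselves, with replicate 3 the highest. The means were 8.06 ± 5.53 and 2.44 ± 0.481 FPKM, and the log2 fold change was 1.49 (SE 0.42, 95% interval 0.52 to 2.46, adjusted p = 0.0325). Without celastrol replicate 3 the log2 fold change was 0.97 (adjusted p = 0.0318). The call was lost without celastrol replicate 2 (adjusted p = 0.0618) and without DMSO replicate 1, 2 or 3 (0.0581, 0.0837 and 0.0733), all with the change above 1.3. The file divides NUPR1 by a gene length of 5674 bases, while GENCODE lists transcripts of 550, 598 and 5491 bases, so its level per length relative to the other genes depends on which transcript was made.

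The phosphatase subunits changed least. PPP1R15A (chromosome 19, 48872392 to 48876057), the inducible subunit, had 38.0, 41.1 and 45.7 FPKM with celastrol and 59.2, 45.9 and 56.0 with DMSO. The highest celastrol and the lowest DMSO library nearly touched. The log2 fold change was -0.36 (SE 0.11, 95% interval -0.63 to -0.10, adjusted p = 0.0455), and the call was lost with a replicate block (0.0508), when scaled to listed reads (0.0861), under TPM (0.342) and when celastrol library 1 or 2, or DMSO library 1 or 3, was left out (0.108 to 0.142). PPP1R15B (chromosome 1, 204403387 to 204411791), the constitutive subunit, had 19.4, 18.6 and 17.9 FPKM with celastrol and 22.2, 23.5 and 23.4 with DMSO. Its log2 fold change was -0.31 (SE 0.07, 95% interval -0.46 to -0.15, adjusted p = 0.0130). It was -0.07 and not called under TPM (adjusted p = 0.490), and the call was lost without celastrol replicate 2 (0.0568) or DMSO replicate 3 (0.0644). Scaling matters at this size: over all tested genes the median log2 fold change was 0.02 as deposited, 0.12 for listed reads and 0.26 for TPM.

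**Figure D2:**
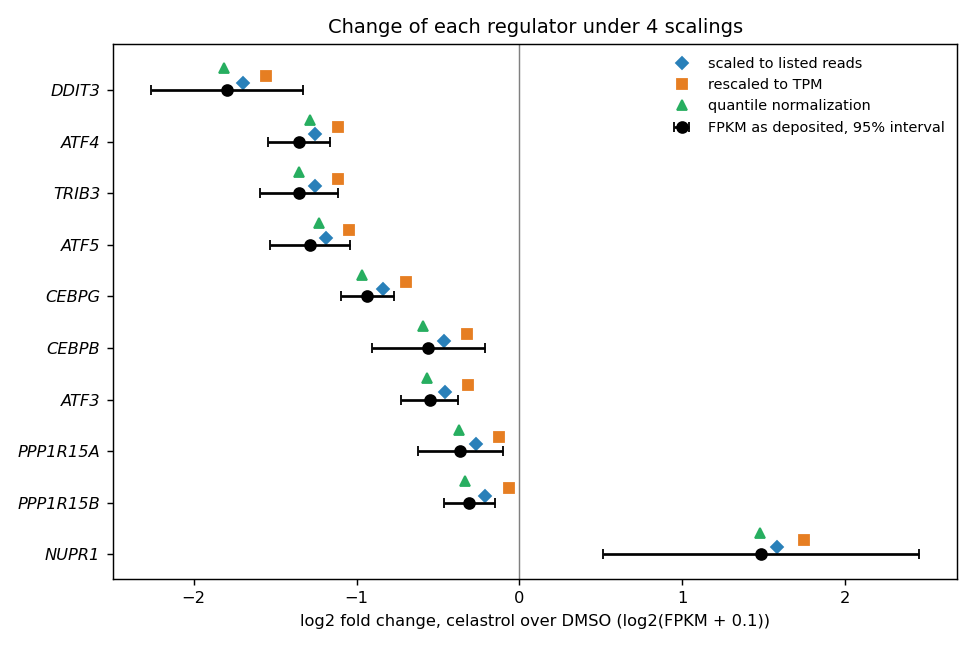
Log2 fold change of celastrol over DMSO for each gene. Black points with 95% intervals are FPKM as deposited (6 libraries), and coloured points are 3 other scalings; no gene crosses 0, and PPP1R15B reaches -0.07 and PPP1R15A -0.12 under TPM.

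Celastrol replicate 3 was the highest of the 3 celastrol libraries for 9 of the 10 genes, where it was the highest for 38.9% of all tested genes. The exception was PPP1R15B, which was lowest there. The genes with the widest spread over celastrol libraries were NUPR1, DDIT3 and CEBPB, at coefficients of variation of 68.6%, 33.9% and 23.2%, against a median of 7.28% over all tested genes. Among the DMSO libraries replicate 1 was the highest for 6 of the 10, against 39.8% of all tested genes, and the coefficients of variation ran from 3.07% for PPP1R15B to 19.7% for NUPR1. What set celastrol replicate 3 apart was not tested. Without it, 9 genes were still called lower and NUPR1 higher.

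Levels per length depend on the gene length used, which for ATF3 was 4040 bases while its longest listed transcript has 2103. The order of these levels changed between treatments. With DMSO it ran ATF5, ATF4, TRIB3, DDIT3, PPP1R15A, CEBPB, CEBPG, PPP1R15B, ATF3 and NUPR1. The ranges over libraries overlapped between ATF5 and ATF4 and between DDIT3 and PPP1R15A, and the other neighbours in that order were apart. With celastrol the order was ATF5, ATF4, PPP1R15A, TRIB3, CEBPB, PPP1R15B, DDIT3, CEBPG, NUPR1 and ATF3. DDIT3 moved from the fourth to the seventh place, where its range overlapped those of PPP1R15B and CEBPG. PPP1R15A moved from the fifth to the third place and overlapped TRIB3, and ATF5 overlapped ATF4 as with DMSO. NUPR1 and ATF3 overlapped at the bottom, and NUPR1 was above ATF3 in only 1 of the 3 celastrol libraries.

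Ratios between genes within a library do not depend on how the library was scaled. TRIB3 over ATF4 was 0.337, 0.325 and 0.311 with celastrol and 0.366, 0.300 and 0.311 with DMSO, with overlapping groups. ATF5 over ATF4 also overlapped, at 1.14 ± 0.0378 and 1.09 ± 0.0520 (SD, n = 3), as did PPP1R15A over PPP1R15B at 2.24 ± 0.298 and 2.34 ± 0.357. ATF3 over ATF4 was 0.0594, 0.0592 and 0.0538 with celastrol and 0.0342, 0.0330 and 0.0318 with DMSO, so all celastrol libraries were higher. DDIT3 over ATF4 was 0.129, 0.140 and 0.200 with celastrol and 0.211, 0.213 and 0.203 with DMSO, lower in all 3 but only just in replicate 3. The widest shift was in NUPR1 over DDIT3, from 0.0409 ± 0.00688 with DMSO to 0.422 ± 0.149 with celastrol. CEBPB over CEBPG overlapped, at 1.52, 1.73 and 2.22 with celastrol and 1.54, 1.37 and 1.27 with DMSO. Each of the 3 ratios whose groups did not overlap had p = 0.1 in a two-sided exact permutation test, the smallest that 3 against 3 allows, and 0.233 after Benjamini-Hochberg adjustment over the 7 ratios, so none passed.

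**Figure D3:**
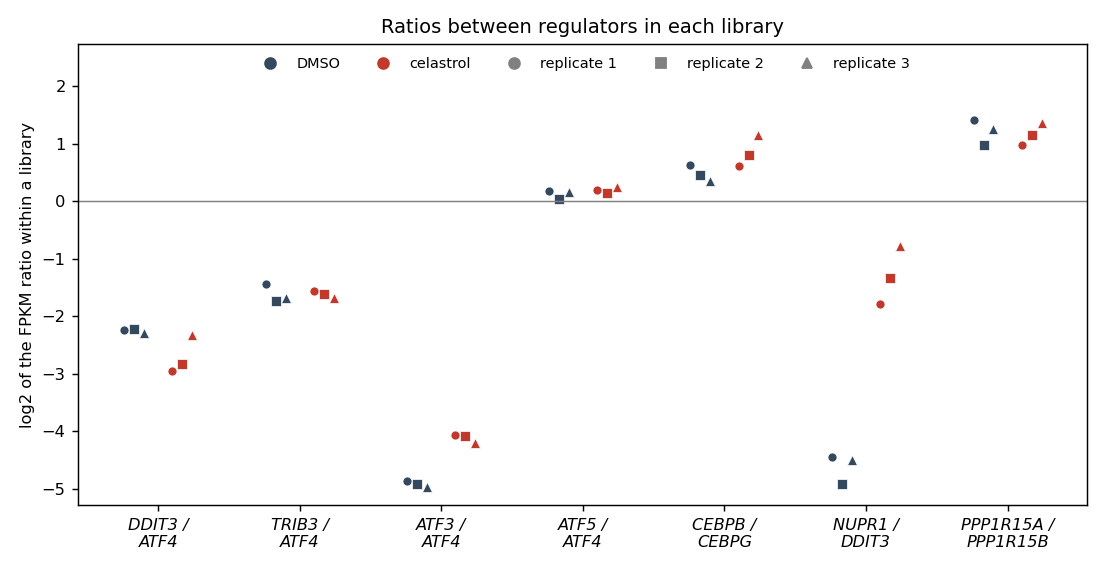
Log2 of the FPKM ratio within each library for 7 pairs of genes, celastrol and DMSO side by side (symbol: replicate number). The groups are apart for DDIT3 over ATF4, ATF3 over ATF4 and NUPR1 over DDIT3, and overlap for the other 4 pairs.

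Genes that ATF4 and CHOP are known to induce were lower in 43 of 50 tested and higher in 3, out of 53 listed. Over all tested genes 14.2% were lower and 15.3% higher. The median log2 fold change of the listed genes was -0.86. The lists were chosen with earlier results of these data known, so their counts are descriptions. Among enzymes of amino acid synthesis and folate metabolism 13 of 14 were lower. They included ASS1 (argininosuccinate synthase) at -2.31, ASNS (asparagine synthetase) at -1.99, CTH (cystathionine gamma-lyase) at -1.69 and PHGDH, which starts serine synthesis, at -1.54. CBS, of transsulfuration, was at -0.90 and just missed the threshold (adjusted p = 0.0519); it passed with quantile normalization (0.0451), a minimum mean of 5 FPKM (0.0199), limma-voom (0.00618), a replicate block (0.0320), protein-coding genes alone (0.00836) and without DMSO replicate 2 (0.0245). ASNS reached the minimum mean only through the DMSO libraries (0.914 FPKM with celastrol, 3.93 with DMSO). All 13 aminoacyl-tRNA synthetase and tRNA export genes were lower, led by WARS at -1.15, CARS and AARS at -0.98 each and SARS at -0.92. Of 9 amino acid transporters 7 were lower, among them the glycine transporter SLC6A9 at -1.49, the cystine importer SLC7A11 at -1.10, SLC1A4 at -0.93 and the leucine importer SLC7A5 at -0.81. SLC38A2 was at -0.06 (adjusted p = 0.727) and lay above 0 under TPM (0.18).

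The stress effectors were more mixed, with 10 of 14 tested lower and 2 higher, against 14.2% and 15.3% of all tested genes. CHAC1, which degrades glutathione, was at -2.33, the mTORC1 inhibitor DDIT4 at -1.80, the activin subunit INHBE at -1.57 and BBC3, the BH3-only protein PUMA, at -1.51. GDF15, a secreted stress factor, was at -0.46 (adjusted p = 0.158), and its celastrol libraries were wide at 78.1 ± 28.1 FPKM against 104 ± 12.3; without celastrol replicate 3 it was at -0.74 and passed (0.0105). TNFRSF10B, the death receptor that CHOP induces, was at 0.10 (adjusted p = 0.357), and at 0.34 and called higher under TPM (0.0133). The 3 targets called higher were the BH3-only gene BCL2L11 at 0.58, the ER oxidase ERO1A at 0.33 and SLC3A2 at 0.73, named here after their values were seen. SLC3A2, the heavy chain of amino acid exchangers, had 138 ± 52.0 FPKM with celastrol against 79.7 ± 8.47 (adjusted p = 0.0496). With celastrol library 2 or 3, or DMSO library 1 or 3, left out, 1 target was called higher.

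**Figure D4:**
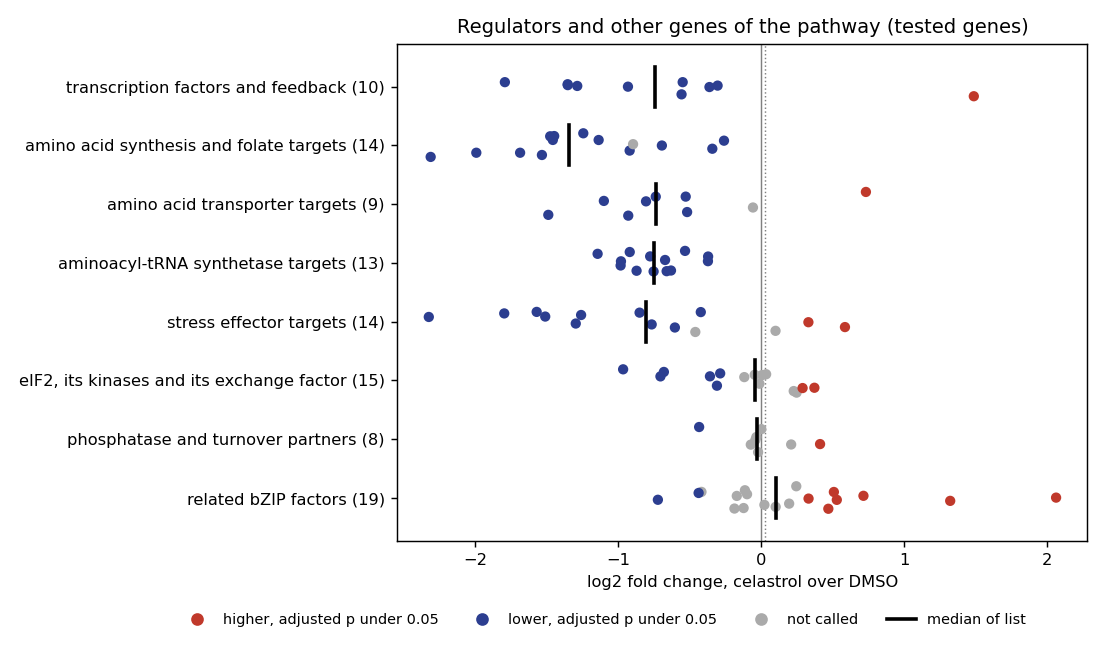
Log2 fold change of each tested gene in 8 lists (number tested in brackets); colour gives the call and the black bar the list's median, and the dotted line is the median of all tested genes. The 10 regulators and the 4 target lists have medians from -1.35 to -0.74, and the lower 3 lists lie near 0.

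Upstream of the 10 genes, 15 tested genes covered eIF2, its kinases, its exchange factor and the regulators OMA1, DELE1 and IMPACT, described below. Of them 6 were lower, 2 were higher and 7 were not called, against 14.2% lower and 15.3% higher of all tested genes. Their median was -0.05, and they did not move as 1 block. The lower genes included EIF2S3, the gamma subunit of eIF2, which fell from 217, 239 and 232 FPKM with DMSO to 129, 118 and 105 with celastrol (log2 fold change -0.97), IMPACT, an inhibitor of the kinase GCN2, at -0.71, and DELE1, which relays mitochondrial stress to the kinase HRI, at -0.68. OMA1, the mitochondrial protease that cleaves DELE1, was higher at 0.37, but did not pass when celastrol library 2 or 3, or DMSO library 3, was left out (adjusted p = 0.0630 to 0.0856). Of the eIF2 kinases, named after their values were seen, EIF2AK1 (HRI) was lower at -0.29 (adjusted p = 0.0293). Its call under the alternatives was not examined. EIF2AK2 (PKR) at 0.25, EIF2AK3 (PERK) at 0.00 and EIF2AK4 (GCN2) at -0.01 did not pass. EIF2S1, the subunit that is phosphorylated, was at 0.23 (adjusted p = 0.143) and EIF2B5 at -0.05 (0.652). Under TPM both passed as higher, EIF2S1 at 0.47 (0.0109) and EIF2B5, with its sign turned, at 0.19 (0.0417); EIF2S1 also passed with limma-voom (0.33, 0.0142). Among partners of the phosphatase and of protein turnover, 1 of 8 tested was lower and 1 higher, near the 14.2% and 15.3% of all tested genes. PPP1CC, a catalytic subunit of protein phosphatase 1, was at -0.44, a call lost under TPM (-0.19, adjusted p = 0.112), and TRIB2, a relative of TRIB3, was at 0.41. The catalytic subunits PPP1CA and PPP1CB were at -0.07 and -0.02 (adjusted p = 0.529 and 0.891), signs that turned under TPM (0.17 and 0.22).

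Of 19 related bZIP factors tested outside the 10 genes, 7 were higher and 2 lower, against 15.3% and 14.2% of all tested genes. The other 10 were not called, and the median was 0.10. FOSB was at 2.06, FOS at 1.32 and FOSL2 at 0.71, all AP-1 subunits. FOS had 2.25 ± 0.241 FPKM with celastrol against 0.840 ± 0.0648 with DMSO, and FOSB 1.73 against 0.343. Both are low and reached the minimum mean of 1 FPKM only through the celastrol libraries where they are high, so their place among the 7, and the list's count and median with them, support no direction of the list. Their size depends on the pseudocount: FOSB was at 1.02 with a pseudocount of 1 and 2.33 with 0.01, and FOS at 0.82 and 1.41. FOSL2 did not pass when celastrol library 2 or 3 was left out (adjusted p = 0.0625 and 0.0523). ATF7 was lower at -0.72, while JUND at 0.19 and ATF6B at -0.19 did not pass (adjusted p = 0.149 and 0.137). ATF6B turned to 0.05 under TPM, and JUND passed there (0.00452), when scaled to listed reads, with limma-voom and without DMSO replicate 1. ATF6B passed without DMSO replicate 2 (-0.27, adjusted p = 0.0249). When every gene was tested, SLC7A11, IMPACT, OMA1, PPP1CC, TRIB2, ATF7 and FOSL2 were not called (adjusted p = 0.0525 to 0.0852).

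The genes outside these lists whose pattern over the 6 libraries was most like DDIT3 were FAM89A, RPL23 and LRRFIP2 (Pearson's r = 0.995, 0.993 and 0.993 of log2 values, 6875 candidates). For NUPR1 they were LSM10, HLA-E and RTN4 (r = 0.994, 0.993 and 0.991), and for PPP1R15B they were IPO5, TYMS and GART (r = 0.999, 0.999 and 0.997). The 6 libraries share 2 treatments, so these values are a description, and the changes themselves were smaller than those of DDIT3 and NUPR1: FAM89A was at -0.72 and LSM10 at 0.32 on the log2 scale, against -1.79 and 1.49. LSM10, HLA-E and RTN4 were not called as deposited (adjusted p = 0.0661, 0.0894 and 0.0642) and were called higher under TPM (0.00334, 0.00296 and 0.00285). GART was lower at -0.28, a call lost under TPM (-0.04, adjusted p = 0.661), for listed reads (0.0603), with limma-voom (0.0545) and when celastrol library 2 or 3, or DMSO library 3, was left out (0.0512 to 0.0830), and FAM89A, RPL23 and GART were not called when every gene was tested (0.0578, 0.0852 and 0.0594).

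As a check of the cells, 5 of 12 myeloid markers reached the minimum mean of 1 FPKM, with SPI1 and PTPRC expressed, MPO and CD14 near 0 and HLA-DRA at 0. All 11 erythroid markers reached it, led by RHAG and GATA1, and 9 were lower with celastrol, against 14.2% of all tested genes. AHSP and SLC4A1 among the 9 reached the minimum mean through the DMSO libraries alone. Summed erythroid marker FPKM was 476 to 528 with celastrol and 614 to 629 with DMSO. RHAG made up much of that sum and was not lower, at 290 ± 5.96 FPKM with celastrol and 261 ± 12.4 with DMSO. The log2 fold changes of the 11 erythroid markers ran from -3.12 for AHSP to 0.15, with a median of -1.25, against -0.75 for the 10 genes. The count of 9, the range and the median include AHSP and SLC4A1, which passed the filter through the DMSO libraries alone. They are descriptions and support no direction of the list. Summed myeloid marker FPKM was 57.2 to 63.3 with celastrol and 71.9 to 79.7 with DMSO. The myeloid markers did not move together either: LYZ, which had 17.6 ± 1.13 FPKM with celastrol and 38.0 ± 1.30 with DMSO, and ITGAM were lower, at -1.10 and -0.78 on the log2 scale, while SPI1 at 0.33, PTPRC at 0.23 and CD33 at -0.14 did not pass. LYZ is part of the summed myeloid level, so the lower sum holds its fall and does not show a fall of the other markers. Of 6 lymphoid markers 2 were tested, with MS4A1 at 0, and of 8 epithelial and stromal markers 4 were, with CDH1, COL1A1, COL1A2 and PDGFRB near 0 but KRT8, KRT19, EPCAM and PECAM1 expressed. These 4 did not move together: EPCAM was lower (15.6 ± 0.744 FPKM with celastrol, 32.0 ± 1.79 with DMSO), KRT19 was lower (102 ± 0.420 and 125 ± 12.5), KRT8 was higher (94.0 ± 13.2 and 55.7 ± 4.63), and PECAM1 was at 6.01 ± 0.547 and 5.45 ± 0.226 and did not pass. The name SKM-1 comes from the titles. More of the listed erythroid than myeloid markers reached the minimum mean, which sits apart from a myeloid name, and the identity of the cells was not tested. Mitochondrial reads were 1.37% to 1.85% of each celastrol library and 5.44% to 5.65% of each DMSO library. The part of these differences in the changes of the 10 genes was not tested, beyond the scaling to nuclear reads, under which 9 genes were lower and 1 higher.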

How the data were processed

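RNA sequencing of 6 SKM-1 libraries was analysed, 3 with celastrol and 3 with DMSO, grouped by their titles. The authors deposited FPKM per gene and library with gene length; HISAT2 2.0.5, featureCounts 1.5.0-p3 and GRCh38 are named per the submitters' processing notes, while no source used here gives their settings, the strand or the library total. Whole reads were recovered from FPKM and length, with 100% of nonzero values whole to a tolerance of 0.001. The authors' total was 1.04 to 1.05 times the listed reads for celastrol and 0.963 to 0.994 times for DMSO, which shifts small changes. All 58735 identifiers matched GENCODE 29.

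Tests used limma 3.58.1 in R 4.3.3: limma-trend on log2(FPKM + 0.1), which understates changes of low genes, for the 12685 genes with a mean of at least 1 FPKM, two-sided, Benjamini-Hochberg over all of them, threshold 0.05. Means and SD are of FPKM; log2 fold changes and SE are from limma. Ratios were tested in SciPy 1.17.1. The fit was tested on simulated data. The genes and lists were chosen with earlier results of these data known, so list counts are descriptions. Named by rule were the 10 genes, up to 4 called and 2 uncalled genes of each list, and 3 genes of like pattern for DDIT3, NUPR1 and PPP1R15B. Alternatives were other pseudocounts, filters, scalings, limma-voom, a replicate block, protein-coding genes alone and each library left out.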

Additional observations from a re-analysis of the deposited data

How the results depend on the processing

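With no filter on low values 523 genes were called higher and 625 lower, 0 of the 10 regulators higher and 1 target higher; that fit tests 58735 genes. Genes called higher numbered 5266 for TPM, 3024 for scaling to listed reads and 3650 for limma-voom, and 813 were lower under TPM, so that the higher share of calls went from 52.0% as deposited to 86.6%, 70.0% and 71.4%. With each library left out, 1125 to 1937 genes were higher, 987 to 1767 lower, 0 to 1 regulators higher and 1 to 2 targets higher. Regulators called lower numbered 9 as deposited, 7 with no filter, 6 under TPM and 6 to 9 with each library left out. With a replicate block 1776 genes were higher and 1617 lower, and of the regulators only PPP1R15A lost its call; same-numbered libraries did not deviate together (r from -0.0326 to 0.0339), so the numbers are not treated as pairs. Signs of genes near 0 turned: SLC38A2, EIF2B5, PPP1CA and PPP1CB were at 0.18, 0.19, 0.17 and 0.22 under TPM, 0.0392, 0.0509, 0.0241 and 0.0747 after scaling to listed reads, and 0.0401, 0.0513, 0.0237 and 0.0766 with limma-voom; PPP1CB was at 0.0155 when scaled to nuclear reads, and ATF6B and LRRFIP2 were at 0.0527 and 0.0547 under TPM. With libraries left out SLC38A2 ran from -0.15 to 0.0400 and PPP1CB from -0.13 to 0.0806. The log2 ratio difference of TRIB3 over ATF4 was 0.000799 with a pseudocount of 0.1 and ran from -0.0566 to 0.0856 with libraries left out, and that of PPP1R15A over PPP1R15B from -0.18 to 0.0435. The cause of these shifts was not tested.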
